A study of Drosophila melanogaster with 2 samples.

Results

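Innexins are the proteins that build gap junctions in insects. They span the membrane, assemble into channels that meet channels of a neighbouring cell, and let ions and small molecules such as second messengers pass between the cells. A channel may hold a single innexin or a mixture, and in *Drosophila* Inx2 is known to pair with Inx3 in the embryonic epidermis and with Ogre (Inx1) in glia. The family has 8 genes in the fly, namely *ogre*, *Inx2*, *Inx3*, *Inx5*, *Inx6*, *Inx7*, *zpg* (*Inx4*) and *shakB* (*Inx8*). They were taken by name, without regard to their values, as every probe set whose single annotated symbol was one of these genes or a unique synonym. Of the 8 genes, 7 had a named probe set, 1 each, among 10845 named genes on the arrays. *shakB*, which builds the electrical synapses of the giant fibre system, was not analysed here.

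The arrays compared homozygous *mid* mutant embryos with *yw* embryos, to look for genes regulated by the T-box transcription factor Midline (Mid). Both groups were incubated at 25 °C and collected 16 h after the eggs were laid, and *mid* homozygotes were recognised by the balancer chromosome CyOact-GFP. The *mid* allele of the array embryos is not given in the labels. *yw* names a stock mutant for the pigmentation genes *yellow* and *white*, whereas the methods of the study speak of heterozygous *mid* embryos, so an effect of *mid* and the genetic background cannot be told apart. Total RNA of whole embryos was hybridised to Affymetrix arrays, 1 array per genotype. No difference below therefore has a replicate check, no p-value is given, and the number of arrays limits the precision.

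The deposited signals differed in scale, the median being 43.3 on the *mid* array and 150 on the *yw* array over 14010 probe sets. Both arrays were brought to the *yw* median (median centring), and all signals below are on that scale unless said otherwise. Signals under 97.6, the 40th percentile of the pooled signals, were treated as dim and set to this floor before a fold change was taken, and a gene above the floor on at least 1 array is called measured. A gene was called higher or lower in *mid* when its fold change passed 2. The gene *mid* itself was under the floor on both arrays, so the genotype could not be checked by it. Signal near the 3′ end of a transcript relative to the 5′ end, a sign of RNA quality, was higher on the *mid* array for 3 of 4 control transcripts (53.5 in *mid* and 28.8 in *yw* for actin). The 3′ signal exceeded the 5′ signal several-fold or more on both arrays. The ratio was 63.3 in *mid* and 50.8 in *yw* for eIF-4a, 17.3 and 21.6 for GAPDH, and 7.43 and 4.52 for 18S rRNA. The part of RNA quality in the results was not tested.

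In the *mid* mutant, *Inx3* was the innexin gene called higher after median centring, though not with the arrays scaled on spiked controls or as deposited, and *zpg* was the one called lower, while *ogre*, *Inx7* and *Inx2* were above the floor on both arrays and within 2-fold. *Inx5* was above the floor only in *mid*, and *Inx6* was at the floor in both genotypes. In RNA of whole embryos, fewer cells of a type and less RNA per cell cannot be told apart. Of the 6 measured innexin genes, 1 was thus called higher, where 5.66% of all 7687 measured genes were, and 1 was called lower, where 4.53% of all measured genes were. The median log2 fold change of the 6 genes was 0.47, with *Inx5* and *zpg* at their bounds, against 0.06 for all measured genes. That of the 4 genes above the floor on both arrays was 0.55, against 0.08 for all 6374 such genes. With 6 genes these counts and medians describe the family and single out nothing about it.

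**Figure D1:**
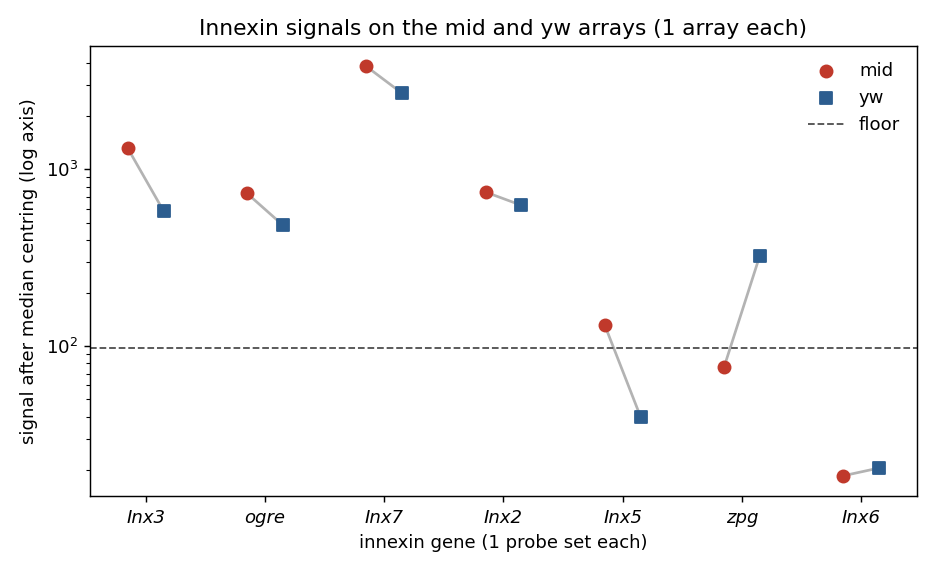
Signal of each innexin gene on the *mid* array (circles) and the *yw* array (squares) after median centring, on a log axis, 1 probe set and 1 array each, with the floor of 97.6 as a dashed line. *Inx3*, *ogre*, *Inx7* and *Inx2* lie above the floor in both genotypes, *zpg* only in *yw*, *Inx5* only in *mid*, and *Inx6* in neither.

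*Inx3* and *Inx2* encode innexins of epithelia that can form mixed channels, and both are needed for the organisation of embryonic epithelia. *Inx3* had a signal of 1314 in *mid* embryos and 581 in *yw* embryos. This was a 2.26-fold higher signal in *mid*, or 1.18 on the log2 scale, larger than that of 96.8% of the genes above the floor on both arrays. *Inx2*, also known as *kropf*, is needed for the formation of the proventriculus, a valve of the foregut. Its signal was 745 in *mid* embryos and 627 in *yw* embryos, 1.19-fold higher in *mid*. The log2 fold change of *Inx2*, 0.25, was larger than that of 63.9% of genes above the floor on both arrays. Both genes of the pair were thus brighter on the *mid* array after centring, by unequal amounts, but *Inx2* was not with the spiked controls, and neither was as deposited.

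The difference between the log2 fold changes of *Inx3* and *Inx2* was 0.93, or 1.9-fold. It does not depend on the factor that brings the arrays to a common scale. To judge how far technical disagreement reaches, genes with more than 1 probe set above the floor on both arrays were used (287 genes), and within such a gene the log2 fold change had an SD of 0.53. Of the 355 pairs of such probe sets, 18.3% differed by at least as much as *Inx3* and *Inx2* did. The unequal change of these partner genes was thus within the range seen inside single genes. Since *Inx3* has 1 probe set, its fold change has no second probe set to set it against. Of the same pairs, 15.2% differed by more than 2-fold.

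*ogre* encodes Innexin 1, which is required for the growth of the postembryonic nervous system and acts in glia together with Inx2. Its signal was 732 in *mid* embryos and 484 in *yw* embryos. It was 1.51-fold higher in *mid*, a log2 fold change of 0.60 that exceeded 84.2% of the genes above the floor on both arrays. *Inx7* is expressed in the embryo and takes part in the development of the embryonic nervous system. *Inx7* had 3823 in *mid* embryos and 2694 in *yw* embryos, 1.42-fold higher in *mid* with a log2 fold change of 0.50. Neither gene passed the 2-fold threshold.

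In the order of log2 fold changes *Inx3* came first, followed by *ogre*, *Inx7* and *Inx2*. *Inx3* differed from *ogre* by 0.58 and from *Inx7* by 0.67 on the log2 scale. *ogre* and *Inx7* differed by 0.09, and *Inx7* and *Inx2* by 0.26. Among the pairs of probe sets inside single genes, 39.2% differed by at least as much as *Inx3* and *ogre*, 88.5% by as much as *ogre* and *Inx7*, and 70.4% by as much as *Inx7* and *Inx2*. No neighbours in this order differed by more than the 0.75 (root mean square) by which such pairs differed.

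*zpg* (*zero population growth*) encodes the innexin of the germ line, where gap junctions to the somatic cells are needed for early germ cells to survive and differentiate. Its signal was 75.9 in *mid* embryos, under the floor, and 324 in *yw* embryos. With the floor in place of the *mid* signal it was at least 3.32-fold lower in *mid*. This bound lay 2.33 below the log2 fold change of *ogre* and 1.98 below that of *Inx2*. The pairs of probe sets inside single genes were all above the floor on both arrays. They therefore give no technical scale for *zpg*, which is under the floor in *mid*.

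Of 9 listed markers of germ cells, 7 could be named and 6 were measured. Of these, 2 had more signal in *mid* and 4 had less. *gcl*, which is required to form the germ cells, had 929 in *mid* embryos and 625 in *yw* embryos, and *tud*, a component of the germ plasm, had 571 in *mid* embryos and 406 in *yw* embryos. Both were above the floor on both arrays and brighter in *mid*, unlike *zpg*. *ovo*, which is also listed for the epidermis, had 111 in *mid* embryos and 141 in *yw* embryos. The piRNA pathway gene *piwi* had 67.6 in *mid* embryos and 121 in *yw* embryos. Its partner *aub* had 30.5 in *mid* embryos and 106 in *yw* embryos, and the germ cell gene *pgc* had 41.9 in *mid* embryos and 103 in *yw* embryos. *piwi*, *aub* and *pgc* were thus just above the floor in *yw* and under it in *mid*. With *yw* signals so close to the floor, these 3 genes and *ovo* could not have been called lower whatever their *mid* signal. Without the floor the *mid* signals would be 1.78-fold (*piwi*), 3.49-fold (*aub*) and 2.46-fold (*pgc*) lower, next to 4.27-fold for *zpg*, all of them ratios to dim signals and taken after the values were seen. *vas*, a defining gene of germ cells, was under the floor on both arrays, with 68.2 in *mid* embryos and 9.31 in *yw* embryos. Without the floor its *mid* signal would be 7.32-fold higher, opposite in direction to *zpg*, *piwi*, *aub* and *pgc*. The summed signal of the 7 markers was 1820 in *mid* embryos and 1512 in *yw* embryos, most of it from *gcl* and *tud*, and 319 in *mid* embryos and 481 in *yw* embryos without that pair. The part of germ cell number in the value of *zpg* was not tested.

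*Inx5* and *Inx6* were under the floor in *yw* embryos. *Inx6* is known, together with *Inx7*, from memory formation in the adult mushroom body. *Inx5* had 132 in *mid* embryos, 1.35 times the floor, and 39.96 in *yw* embryos, under the floor. With the floor in place of the *yw* signal, *Inx5* was at least 1.35-fold higher in *mid*, which is no call. *Inx6* had 18.5 in *mid* embryos and 20.5 in *yw* embryos, so that no fold is given for it. Without centring, the deposited signals of *Inx5* were 38.0 on the *mid* array and 39.96 on the *yw* array, so the genotypes differ in *Inx5* only after scaling.

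**Figure D2:**
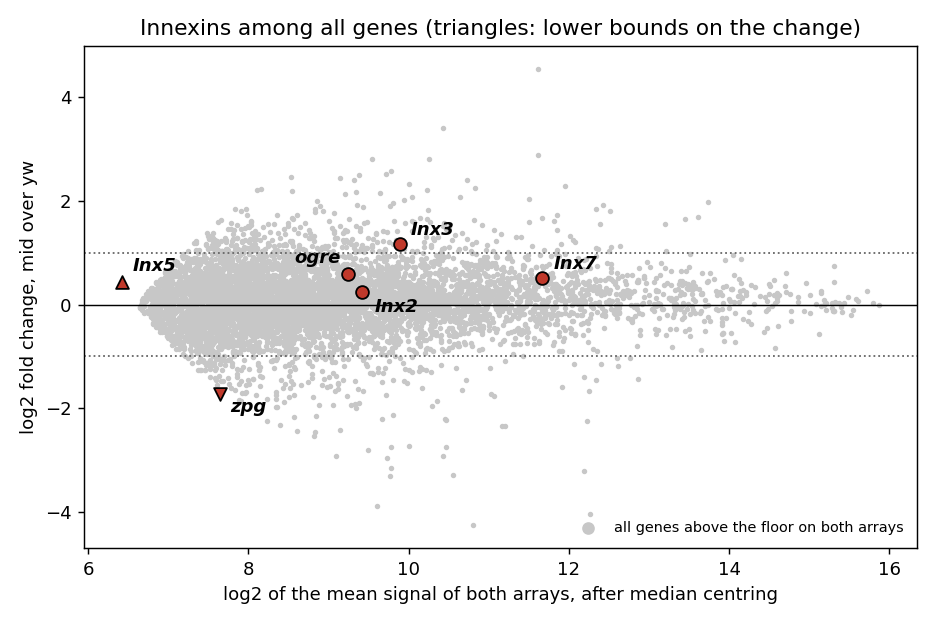
Log2 fold change of *mid* over *yw* against the log2 of the mean signal of both arrays, with all genes above the floor on both arrays in grey and the measured innexin genes labelled. Circles are values and triangles are lower bounds for *Inx5* and *zpg*, and the dotted lines mark 2-fold, which *Inx3* (1.18) and *zpg* (-1.73) pass.

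*zpg* was lower in *mid* under every scaling run, *Inx3*, *ogre* and *Inx7* were higher under every scaling but not as deposited, and *Inx2* was higher under every one except the spiked controls and as deposited. As deposited, all 7 genes had less signal on the *mid* array, as most genes did. The deposited signals of *Inx3* were 379 on the *mid* array and 581 on the *yw* array, a ratio of *mid* to *yw* of 0.65, and those of *zpg* were 21.9 on the *mid* array and 324 on the *yw* array, a ratio of 0.07. The ratios of *ogre*, *Inx7* and *Inx2* were 0.44, 0.41 and 0.34. For all probe sets the median was 3.46 times as high on the *yw* array, and 9 spiked controls were 2.32 to 3.39 times as bright there (median 2.76). With the arrays scaled on these spiked controls, *Inx3* was 1.8-fold higher in *mid* and not called, *ogre* was 1.21-fold and *Inx7* 1.13-fold higher, and the log2 fold change of *Inx2* was -0.08, below 0. *zpg* was at least 3.72-fold lower. The median of all measured genes moved by -0.30 under this scaling. Relative to the median of all measured genes, the log2 fold change of *Inx3* was 1.12 with median centring, 1.09 with the spiked controls and 0.90 as deposited. That of *zpg*, a bound, was -1.79 with median centring, -1.66 with the spiked controls and -1.16 as deposited. *Inx2* stood near that median, at 0.19 with median centring and at -0.02 as deposited. A single factor shifts all genes above the floor on both arrays alike, *Inx3* and *Inx2* included. The distances to the median differ because the floor and the measured genes changed, from 7687 genes with median centring to 8438 as deposited. They therefore do not show that *Inx3* or *Inx2* moved among the other genes.

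**Figure D3:**
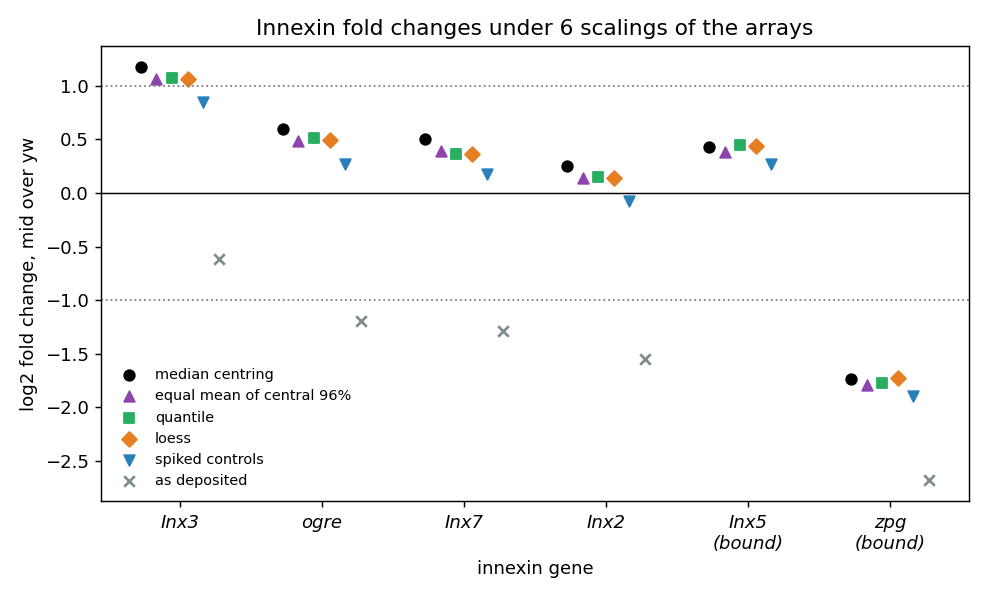
Log2 fold change of *mid* over *yw* for the measured innexin genes under 6 scalings of the arrays, with dotted lines at 2-fold. *Inx3* is above 1 with 4 scalings, at 0.85 with the spiked controls and at -0.62 as deposited, *zpg* is below -1 with all 6, and *Inx5*, a bound like *zpg*, has no value as deposited, where it is at the floor on both arrays.

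Besides their function, several innexin genes share a place in the genome. *ogre*, *Inx7* and *Inx2* lie in a row on the X chromosome, interrupted among protein-coding genes only by *bou*, which encodes a small membrane-anchored protein needed for septate junctions. *bou* had 1059 in *mid* embryos and 676 in *yw* embryos, a log2 fold change of 0.65, next to 0.60 for *ogre*, 0.50 for *Inx7* and 0.25 for *Inx2*. All 4 genes of this stretch were thus brighter in *mid* after centring and within 2-fold, while as deposited all 4 were lower. The genes that flank the stretch were unlike one another. *CG3040*, beside *ogre*, had 965 in *mid* embryos and 845 in *yw* embryos (log2 fold change 0.19), while *cm*, an adaptor subunit gene beside *Inx2*, had 288 in *mid* embryos and 457 in *yw* embryos (log2 fold change -0.66). *Inx5*, *Inx6* and *shakB* also lie on the X chromosome, *zpg* on 3L and *Inx3* on 3R. The 1006 X-linked genes above the floor on both arrays had a median log2 fold change of 0.01, and those of the autosomal arms 2L, 2R, 3L and 3R had medians of 0.07 to 0.11. The X-linked genes *ogre*, *Inx7* and *Inx2* were thus above the median of their chromosome. These flanking genes were looked at after the values of the innexins were seen.

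Gap junctions lie beside other junctions of the same epithelial cells, and Inx2 is known to interact with proteins of septate and adherens junctions. Of 24 measured genes of septate junctions, the barrier between epithelial cells, 2 were called higher and 1 lower, near the 5.66% and 4.53% of all measured genes, with a median log2 fold change of 0.27. Those called were *Gli* (838 in *mid* embryos and 321 in *yw* embryos), *Nrx-IV* (1026 in *mid* embryos and 460 in *yw* embryos) and, lower in *mid*, *cold* (470 in *mid* embryos and 1105 in *yw* embryos). *cora*, whose product is a known partner of Inx2, had 2470 in *mid* embryos and 1475 in *yw* embryos, 1.68-fold higher and not called. *cora* and *Inx3* were both brighter in *mid*, and *Inx2* lay below both in its log2 fold change. Of 8 measured genes listed for adherens junctions, none was called higher and 1, *cno*, was called lower (145 in *mid* embryos and 389 in *yw* embryos). Their median was -0.31. The log2 fold change was below 0 for 6 of the 8. The 2 above 0 were *Nrg* (3782 in *mid* embryos and 1953 in *yw* embryos) and *ed* (2366 in *mid* embryos and 1465 in *yw* embryos). *Nrg* was placed on this list although its product is a component of septate junctions. The summed signal of the 9 named genes of this list was 9620 in *mid* embryos and 7804 in *yw* embryos. *Nrg* was the brightest of them on both arrays, so the higher sum in *mid* is not a property of adherens junction genes alone. *shg*, which encodes the cadherin DE-Cad, another known partner of Inx2, had 111 in *mid* embryos and 148 in *yw* embryos. Set against the median of 0.06 of all measured genes, the septate junction list lay above and the adherens junction list below, and the innexin genes, at 0.47, lay above.

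Calcium and the messenger that releases it from internal stores are among the signals that pass through gap junctions. Of 7 measured genes of calcium release and entry, 1 was called higher, *RyR*, the ryanodine receptor gene (1234 in *mid* embryos and 470 in *yw* embryos), and 1 lower, *sl*, which encodes phospholipase C gamma (113 in *mid* embryos and 270 in *yw* embryos), where 5.66% and 4.53% of all measured genes were. The list had a median of 0.28, which is the bound of *Itpr*, the receptor for the messenger. *Itpr* had 119 in *mid* embryos, close to the floor, and 42.7 in *yw* embryos, under it. It was thus at least 1.22-fold higher in *mid* after centring, which is no call.

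Not all listed markers of the tissues in which innexins act could be measured. Those listed numbered 9 for glia, 10 for neurons, 8 for the foregut and proventriculus, 7 for the epidermis and 7 for muscle. Calls among the measured ones are to be read beside the 5.66% of all measured genes called higher and the 4.53% called lower. Of 6 measured glial markers, 1, *wrapper*, was called higher (441 in *mid* embryos and 214 in *yw* embryos) and none lower (median 0.23). As for *ogre*, the log2 fold change was above 0 for 4 of the 6. These 4 include *nrv2*, also on the septate junction list (658 in *mid* embryos and 337 in *yw* embryos). The log2 fold change was below 0 for 2, which include *repo*, the defining gene of glia (232 in *mid* embryos and 357 in *yw* embryos). Of 5 measured neuronal markers, 3 were called higher and none lower (median 1.06). Of 6 measured epidermal markers, 2 were called higher and none lower (median 0.26), with 3 above 0 and 3 below. Of 5 measured markers listed for the foregut and proventriculus none was called (median 0.55). They include *byn*, a gene of the hindgut (176 in *mid* embryos and 37.8 in *yw* embryos, under the floor), so this median is not one of foregut genes alone. The 2 measured muscle markers were within 2-fold (median 0.20). The summed signals were 4182 in *mid* embryos and 3564 in *yw* embryos for the glial markers, 3838 in *mid* embryos and 2055 in *yw* embryos for the neuronal ones, and 6242 in *mid* embryos and 2875 in *yw* embryos for the epidermal ones, or 3714 in *mid* embryos and 2638 in *yw* embryos without the cuticle gene *TwdlD*. The part of tissue composition in the values of *Inx3*, *ogre* and *Inx7* was not tested.

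**Figure D4:**
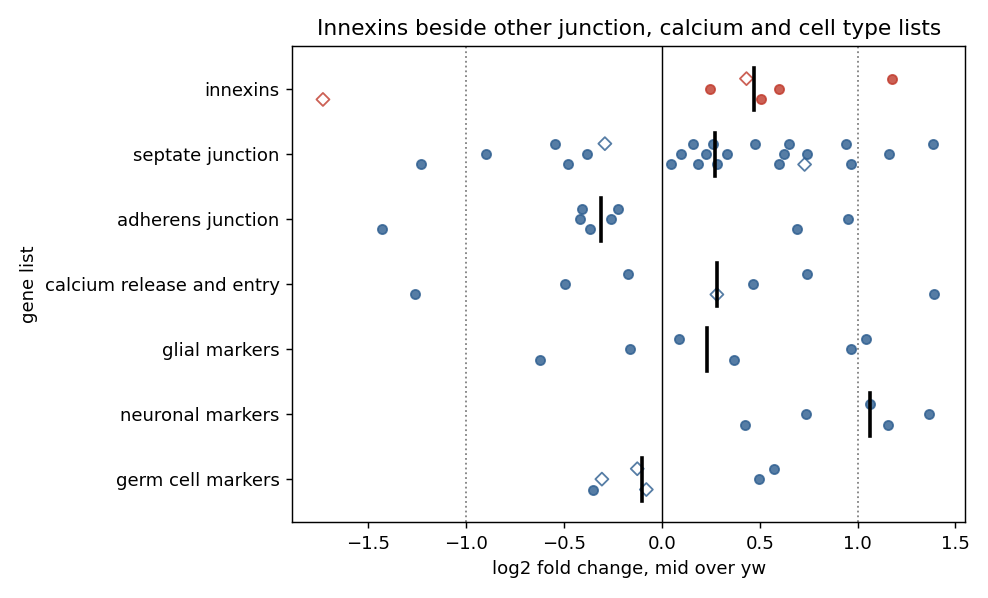
Log2 fold change of *mid* over *yw* for each measured gene of the innexin family and of the lists of junctions, calcium, and glial, neuronal and germ cell markers, with open diamonds for genes at the floor on 1 array, black bars for list medians and dotted lines at 2-fold. The innexin median is 0.47 and the neuronal one 1.06. *zpg* at -1.73 and 3 of the germ cell markers are bounds, which have no order among them.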

How the data were processed

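RNA of *mid* and of *yw* embryos was measured on 1 Affymetrix array per genotype. The authors deposited linear intensities per probe set, made with MAS5 by the submitters' processing notes, with version, scaling target and detection calls not given in the sources used here. Probe sets were named from a platform annotation, in which 12444 had a single symbol, 327 several and 1239 none, and current symbols came from a RefSeq gene table of genome release 6, while 50 named probe sets kept their old symbol. That table gave chromosomes and gene order only, and no coordinates are printed. Innexin promoter and protein sequences were not used here.

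Arrays were centred on the median, floored at the 40th percentile of pooled signals, and reduced to the brightest probe set per gene. Log2 fold changes are *mid* over *yw*, with a bound where 1 array is at the floor. No test was possible with 1 array per group. The plan was to name all innexins and, from the junction, calcium and cell type lists, the members with the largest change. Several of those members, among them all neuronal markers, are not named in the text. *aub*, *pgc*, *vas*, *cora*, *shg*, *Itpr* and the flanking genes were added after their values were seen. Members, lists and settings were chosen with earlier results of these data known. Scripts were tested on simulated data. The tools were Python 3.11.15 with pandas 2.3.3, numpy 2.4.6, matplotlib 3.10.9 and statsmodels 0.14.6.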

Additional observations from a re-analysis of the deposited data

How the results depend on the processing

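With quantile normalisation, loess on mean signal (span 0.3), scaling to the same mean of the central 96% of values, and the median of a gene's probe sets, 1 innexin gene was called higher and 1 lower, as with median centring. Of the innexin genes, 0 were called higher with the spiked controls (2.63% of all measured genes), as deposited (0.225%) and at more than 3-fold (1.31%). There were 2 called higher with the floor at the 20th percentile (9.16% of all measured genes) or no floor (11.2%), which add *Inx5* (3.3-fold higher, 1.72 on the log2 scale), and at more than 1.5-fold (16.7%), which adds *ogre*. The number lower was 4 of 5 as deposited, where 76.2% of all measured genes were lower, and 0 of 5 (3.14%) with a floor at the 60th percentile, by which *zpg* was at least 1.42-fold lower. As deposited, the median of the measured innexin genes was -1.29, that of all measured genes was -1.52, and the log2 fold change of *Inx3* reversed to -0.62. The scaling itself makes this difference, as it multiplies 1 array by a single factor. The log2 fold change of *Inx3* exceeded that of *Inx2* by 0.93 with quantile normalisation and 0.92 with loess, both added after the data were seen. No paired analysis was possible because each genotype has 1 array, and for the same reason no array could be left out. Each innexin gene has 1 probe set, so none of these settings measures disagreement within the gene.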
